A study of Mus musculus with 71 samples.

Results

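The genes described here encode the protein components of the cytosolic ribosome. They were taken as the genes whose symbol starts with Rpl, Rplp or Rps, that encode a ribosomal protein of the cytosol and that are represented by a probe set annotated to 1 gene, with the Rps6 kinases left out. The rule, which used no measured value, gave 46 of 12393 genes, 26 of the large and 20 of the small subunit. Their mRNA was measured on 71 mouse Affymetrix arrays, 35 of 3T3-L1 and 36 of C3H/10T1/2 adipocytes. 3T3-L1 is a preadipocyte line derived from mouse embryo fibroblasts and C3H/10T1/2 is a mesenchymal line, also from mouse embryos. RSG (rosiglitazone) is a thiazolidinedione that activates the nuclear receptor PPARγ.

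Both lines had been differentiated in the presence of RSG before the experiment. C3H/10T1/2 cells were given 10 μM RSG and insulin for 6 days. 3T3-L1 cells were given a cocktail of 100 nM RSG, insulin, IBMX and dexamethasone and were then kept without RSG until mature. Each sample pooled cells of a pair of wells, and the replicates came from separate differentiation batches. All adipocytes were then held for 24 hrs in a washout medium with BSA and no RSG, and were treated in it with 1 μM RSG or with the vehicle DMSO for 1, 2, 4, 7, 24 or 48 hrs. Each of the 24 groups held 3 arrays, numbered by replicate, except 3T3-L1 DMSO at 2 hrs with 2 arrays. The DMSO adipocytes were thus cells that had seen RSG during differentiation. C3H/10T1/2 adipocytes had been without it for the 24 hrs of washout when the DMSO time course began, and 3T3-L1 adipocytes for some days before the washout as well. The values are linear signals that the authors obtained with MAS 5.0 and scaled to 1 target on every array. The share of probe sets at or above the presence level of the study's methods (set there from negative control probe sets) ranged from 67.8% to 73.9% by array for 3T3-L1 and from 62.1% to 67.7% for C3H/10T1/2. Adiponectin (Adipoq), a hormone of mature adipocytes, had a median signal of 7832 over the 3T3-L1 arrays and 6030.2 over the C3H/10T1/2 arrays, but leptin (Lep) reached the presence level on 0 of 71 arrays.

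A cytosolic ribosome holds a single copy of nearly every ribosomal protein, and cells keep the supply of the different proteins balanced. In mammals most of these mRNAs begin with a C and a run of pyrimidines, the 5′ terminal oligopyrimidine tract, through which mTOR signaling sets how well they are translated without a matching change in their amount. Their steady levels made several of them reference genes for QRT-PCR, among them Rplp0, formerly called 36B4 or Arbp, which served as the reference gene of this study.

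The starts of these mRNAs are shown for 4 members with a pyrimidine run at the annotated start, for Rplp0, and for the 5 members that changed with RSG in the comparison at 48 hrs described further on. RefSeq (GRCm38.p6) gave a promoter window for 41 of the 46 members. Each line holds 15 bases before and 15 bases from the annotated start, 5′ to 3′, and capitals mark a C followed by at least 4 pyrimidines (C or T) that begins within 5 bases of that start. Where a gene has more than 1 annotated start, the first listed is shown.
Rps6: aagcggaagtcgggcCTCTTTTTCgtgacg
Rpl35: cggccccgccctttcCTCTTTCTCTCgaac
Rps10: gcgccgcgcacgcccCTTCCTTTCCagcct
Rps18: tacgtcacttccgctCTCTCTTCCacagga
Rplp0: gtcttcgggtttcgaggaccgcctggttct
Rps26: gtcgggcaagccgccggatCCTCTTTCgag
Rpl6: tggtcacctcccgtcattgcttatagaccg
Rpl22: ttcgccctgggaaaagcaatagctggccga
Rps3: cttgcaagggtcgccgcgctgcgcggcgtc
Rpl12: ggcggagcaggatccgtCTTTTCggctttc

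The windows of Rps6 and Rps10 lie at chr4:86857353-86857382 (minus strand) and chr17:27635230-27635259 (minus strand), and those of Rpl35 and Rps18 at chr2:39005117-39005146 (minus strand) and chr17:33955651-33955680 (minus strand). The window of Rplp0 lies at chr5:115559452-115559481 (plus strand). Those of the 5 called members lie at chr10:128626492-128626521 (minus strand) for Rps26, chr5:121204486-121204515 (plus strand) for Rpl6 and chr4:152325711-152325740 (plus strand) for Rpl22. For Rps3 and Rpl12 they lie at chr7:99483695-99483724 (minus strand) and chr2:32961697-32961726 (plus strand). A run that begins exactly at the annotated start was found at 8 of 49 member starts (16.3%) and at 2.51% of all 32851 starts in the table. When a shift of 5 bases to either side was allowed, the shares were 42.9% of member starts and 18.3% of all. Of the 5 called members Rps26 and Rpl12 had such a run within 5 bases. Rpl6, Rpl22 and Rps3 had none there in the window shown. The Rpl22 window shown is at a start inside the gene, and the annotated start at its 5′ end had no such run either. The starts used in these cells were not measured, so a missing run does not show that an mRNA lacks the tract. CCGGAAG, the core bound by ETS factors, was present on either strand of the 300-base window (250 bases before to 50 after the start) in 40.8% of member windows and 8.86% of all. AAGATGG, bound by YY1, was present in 14.3% and 6.34%, and AGGTCA, the half-site of nuclear receptors such as PPARγ, in 10.2% and 16.3%. These matches describe the letters in these windows and nothing about binding.

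Of the 46 members, 44 passed the filter (a group mean at the presence level in at least 1 of a line's 12 groups) in each line. The other two, Rpl39l and Rpl3l, are paralogues known from testis and from muscle. Rpl39l gave signals from 0.3 to 12.2 and Rpl3l from 1.1 to 17.3, so neither reached the presence level on any array. The members were bright: 32 of 46 had a geometric mean signal of 1000 or more, against 4.25% of all genes. Another 9 lay between 100 and 1000, and 3 (Rpl12, Rpl14 and Rps25) between the presence level and 100. For 22 members there was more than 1 probe set, and the one with the highest mean log2 signal was taken. A further 102 ribosomal protein probe sets were annotated to several genes and were left out of the member values. On such probe sets alone were 27 ribosomal protein genes, Rpl3 among them, and Rpl10l had no probe set annotated to it alone.

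Ribosomal protein mRNAs stayed near their DMSO level over the first 24 hrs of RSG in both lines. In 3T3-L1 adipocytes 0 of 44 members differed between RSG and DMSO at 1, 2, 4, 7 and 24 hrs (limma, adjusted p under 0.05 over all tested probe sets), where 0.0861%, 0.191%, 0.832%, 2.38% and 12.6% of all 10451 genes did. In C3H/10T1/2 adipocytes 0 of 44 differed at all 6 times, against 0.0531%, 0.276%, 0.839%, 3.13%, 8.64% and 6.09% of 9411 genes. The unadjusted p was under 0.05 for between 0 and 5 members in each of these 11 comparisons, and the methods' test called the same numbers. That test is an analysis of variance over the groups on log10 signals, with each gene's own spread in place of limma's moderated one, and takes an unadjusted p under 0.05 with a change of at least 1.2-fold. The median log2 fold change of the members lay between -0.08 and 0.04 in these comparisons. With quantile normalization in place of the deposited scaling, 4 members were lower at 24 hrs in 3T3-L1 (Rps20, Rpl7, Rps26 and Rpl10a), 2 at 24 hrs (Rps26 and Rps7) and 1 at 48 hrs (Rpl35) in C3H/10T1/2. Of all genes 6.73%, 3.57% and 2.94% were lower in the same fits. A fit with the replicate number as a block called Rps20 alone at 24 hrs in 3T3-L1, with a log2 fold change of -0.34 (limma adjusted p = 0.0299) against an adjusted p of 0.0643 without it.

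**Figure D1:**
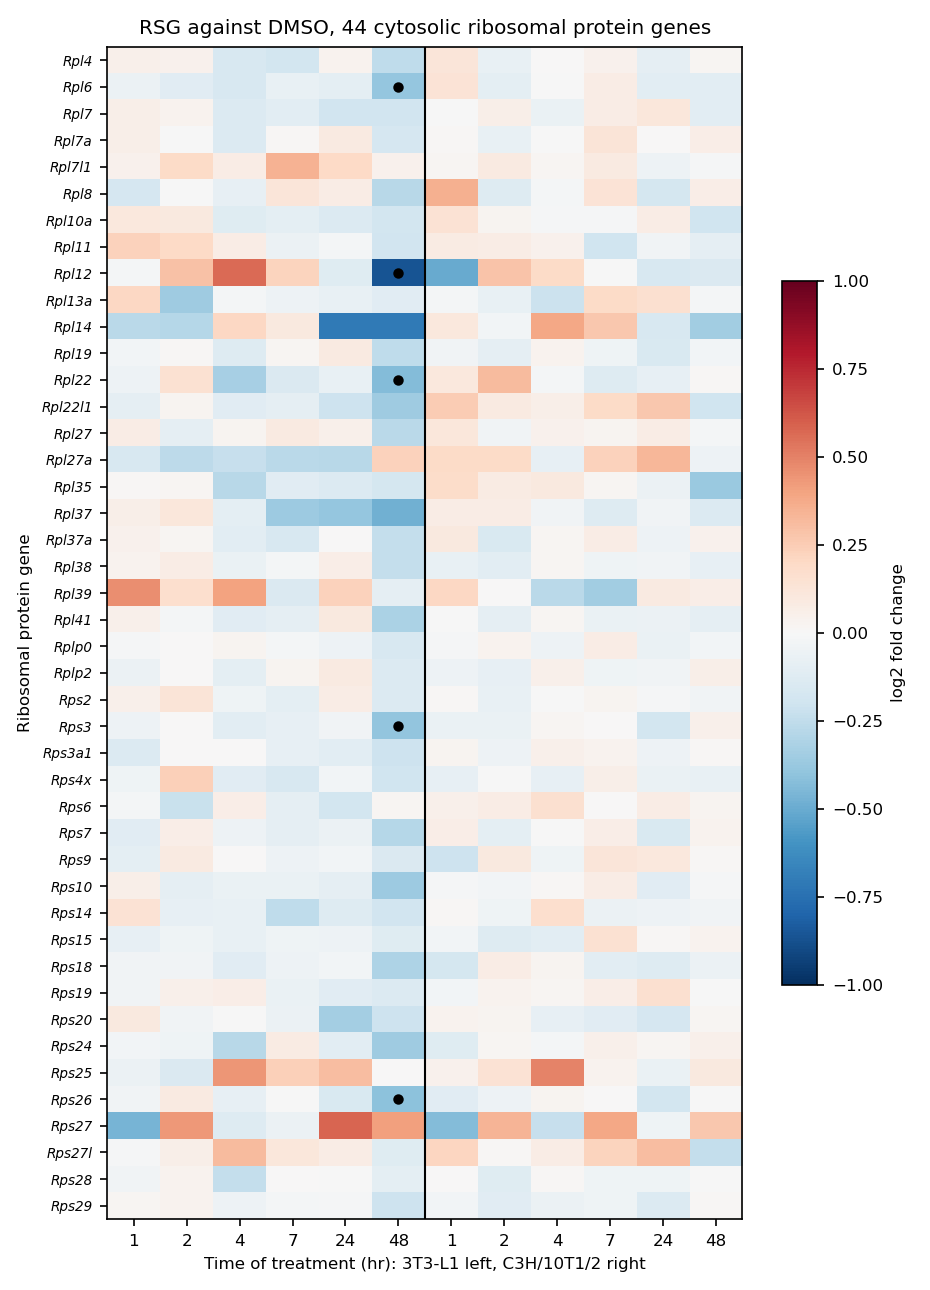
Log2 fold change of RSG against DMSO for the 44 tested ribosomal protein genes (rows) at each time in hours (columns), 3T3-L1 on the left and C3H/10T1/2 on the right; blue is lower and red higher with RSG. Black dots mark the 5 values with an adjusted p under 0.05, all in 3T3-L1 at 48 hrs.

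The intervals around these values were narrow. Over the 12 comparisons and 44 members there were 528 values, of which 5 passed the test, and for 436 the 95% interval of the fold change lay wholly within 1.5-fold either way. For 22 members it did so in all 12 comparisons, among them the large subunit proteins Rpl4, Rpl7a, Rpl19 and Rplp2 and the small subunit proteins Rps2, Rps4x, Rps7 and Rps29. The share of members within this limit ranged from 70.5% to 90.9% by comparison and that of all genes from 27.1% to 55.9%. The median absolute log2 fold change was 0.08 for members and 0.18 for all tested genes. The members were brighter than most genes, and neither comparison with all genes was matched for signal. The widest intervals were those of some dimmer members. Dim signal and wide intervals did not always go together, since Rps6 and Rpl7l1 lay within 1.5-fold in 10 and 11 of 12 comparisons. For Rpl27a and Rps27 the interval was within 1.5-fold in 0 of 12 comparisons and for Rpl12 and Rpl14 in 1 of 12.

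Rplp0, a protein of the ribosomal stalk and the reference gene of the study, had an interval within 1.5-fold in all 12 comparisons. Its signal ranged from 3998 over a median of 4767 to 6235 on the 35 arrays of 3T3-L1, and from 3259 over 4012 to 4366 on the 36 of C3H/10T1/2. At 48 hrs in 3T3-L1 it was 6036, 4541 and 3998 with DMSO and 4713, 4129 and 4054 with RSG. Those groups overlapped, and the highest value was the DMSO array of replicate 1. The log2 fold change was -0.16 ± 0.13 (SE) with a limma adjusted p of 0.508 and a 95% interval from -0.42 to 0.11. The C3H/10T1/2 value at 48 hrs was -0.03 (limma adjusted p = 0.955). Rps6, the substrate of the S6 kinases downstream of mTOR, was read by a dim probe set, with signals of 182, 166.5 and 215 with DMSO and 187, 159 and 229 with RSG at the same time. Here too the groups overlapped, with a log2 fold change of 0.02 ± 0.21 (SE; limma adjusted p = 0.969).

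At 48 hrs in 3T3-L1 adipocytes 5 ribosomal protein mRNAs were lower with RSG and most others had small negative values. Of 44 members 5 passed the test, all lower (11.4%), where 14.8% of all genes were called and 8.63% called lower. With the deposited scaling the share called was thus near the background. The shift was small and broad: 39 of 44 members (88.6%) had a negative fold change against 54.1% of all genes, the median log2 fold change was -0.20 against -0.04 for all genes, and 16 members had an unadjusted p under 0.05. The members that passed were Rps26, Rpl6, Rpl22, Rps3 and Rpl12. Quantile normalization called 15 members, all lower (34.1%), where 7.999% of all genes were called lower. With that normalization the share of members was thus above the background. The methods' test called 13 members without adjustment. In limma on only the 6 arrays compared, 0 passed, and the adjusted p of these 5 lay between 0.0871 and 0.300. With the replicate number as a block 6 passed, all lower, namely the same 5 and Rps24. The numbers were not taken to pair the arrays of this line. Leaving out 1 array at a time gave 1, 4 and 13 called members without DMSO replicates 1, 2 and 3, and 3, 1 and 2 without RSG replicates 1, 2 and 3.

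Rps26 is a small subunit protein at the mRNA exit channel. Its signal was 5211.5, 4238 and 4097 on the DMSO arrays and 3799, 3416 and 2991 on the RSG arrays of replicates 1, 2 and 3. The RSG arrays lay below all DMSO arrays, of which replicate 1 was the highest. The log2 fold change was -0.41 ± 0.12 (SE; limma adjusted p = 0.0237), and without that DMSO array it was -0.30 with an adjusted p of 0.166.

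Rpl6, a large subunit protein, read 6832, 4883 and 4240.3 with DMSO and 4151, 4079.5 and 3716 with RSG. Again no RSG array reached the lowest DMSO array and the first DMSO array stood apart. The log2 fold change of -0.39 ± 0.12 (SE; limma adjusted p = 0.0323) became -0.19 (adjusted p = 0.348) without it. Rps3, a small subunit protein at the mRNA entry that also has a role in DNA repair, read 5176, 3686.5 and 3679 with DMSO and 3056, 3144 and 3199.7 with RSG. Its groups did not overlap, and its log2 fold change of -0.40 ± 0.14 (SE; limma adjusted p = 0.0463) became -0.23 (adjusted p = 0.346) without the first DMSO array.

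Rpl22 is a large subunit protein that is dispensable for most translation and has a paralogue, Rpl22l1, which it is known to repress. It read 847.5, 564 and 627.9 with DMSO and 455, 474 and 560.5 with RSG, and the highest RSG array lay just below the lowest DMSO array. The log2 fold change was -0.44 ± 0.13 (SE; limma adjusted p = 0.0216), or -0.27 (adjusted p = 0.228) without the first DMSO array. A second probe set of Rpl22 gave -0.30 (limma adjusted p = 0.180).

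Rpl12, a large subunit protein at the base of the stalk, was read by a dim probe set, at 58.8, 77.3 and 62.2 with DMSO and 40.8, 29.4 and 38.9 with RSG. Here replicate 1 was the lowest of the DMSO arrays and no RSG array reached it. The log2 fold change of -0.87 ± 0.24 (SE; limma adjusted p = 0.0131) was the only one of the 5 to pass without that array (-0.95, adjusted p = 0.0209). It did not pass without DMSO replicate 2 (-0.75) or without RSG replicate 2 (-0.72). In 3T3-L1 the DMSO arrays of other times reached down to 37.2 (at 4 hrs) and 38.8 (at 7 hrs), inside the range of the RSG arrays at 48 hrs, and in C3H/10T1/2 it lay between 19.5 and 41.5 on all arrays, near the presence level.

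**Figure D2:**
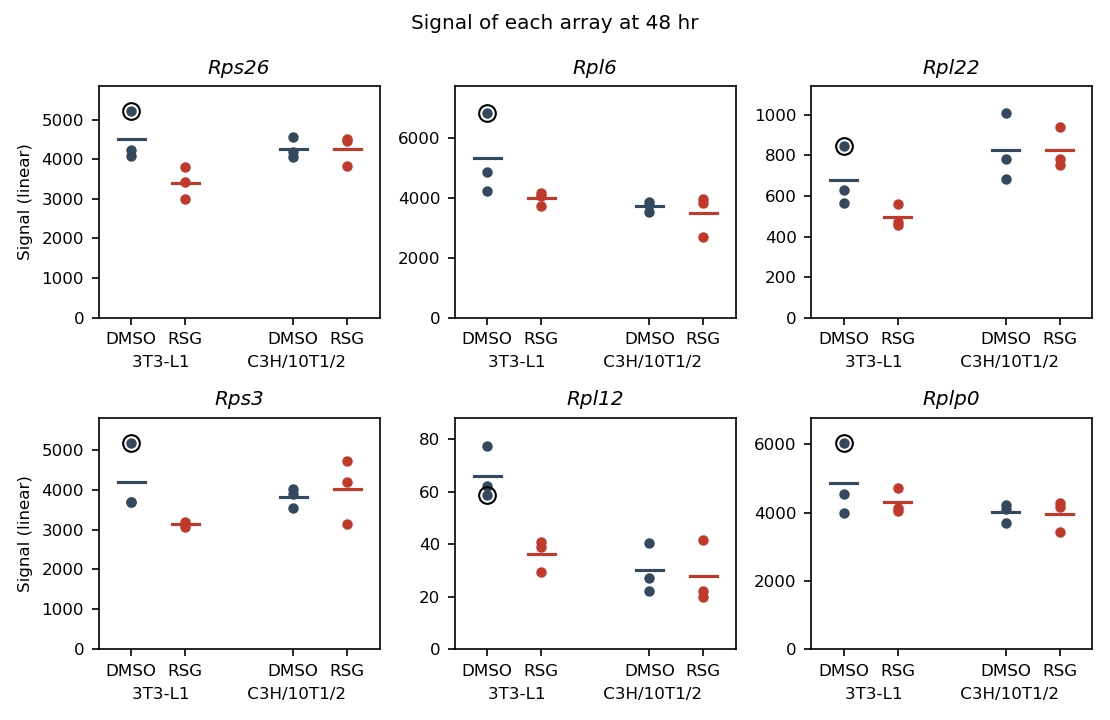
Signal on each array (points; linear axis from 0) and group mean (bars) at 48 hrs for the 5 members that passed the test in 3T3-L1 and for Rplp0, with DMSO in blue and RSG in red. The circled point is the 3T3-L1 DMSO array of replicate 1, which is the highest of its group for all but Rpl12; in C3H/10T1/2 the groups overlap in every panel.

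The mean log2 level of the 44 members on an array, set to 0 for DMSO at 1 hr, was compared between arrays. In 3T3-L1 at 48 hrs it was 0.24, -0.01 and -0.15 on the DMSO arrays of replicates 1, 2 and 3 and -0.13, -0.20 and -0.25 on the RSG arrays. The first DMSO array was the highest of the 35 arrays of the line, whose median was -0.06, and the DMSO array of replicate 3 lay below the first RSG array. Within each replicate number the RSG array was lower, by 0.37, 0.18 and 0.11. Without the first DMSO array, but with the RSG array of replicate 1 kept, the median fold change of the members was -0.07. In that fit 34 of 44 members were negative and 1 passed. The same fit gave a median of -0.02 for all genes and called 6.33% of them lower.

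The 3′ to 5′ log2 signal ratio of the Gapdh control, a sign of RNA integrity, was -0.12, -0.41 and -0.19 on the 3 DMSO arrays at 48 hrs, and that of replicate 1 was the highest of the 35 arrays of the line. The ratio for Actb, 0.42 on that array, lay inside the range of 0.13 to 0.50. The part of RNA quality in the result was not tested.

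**Figure D3:**
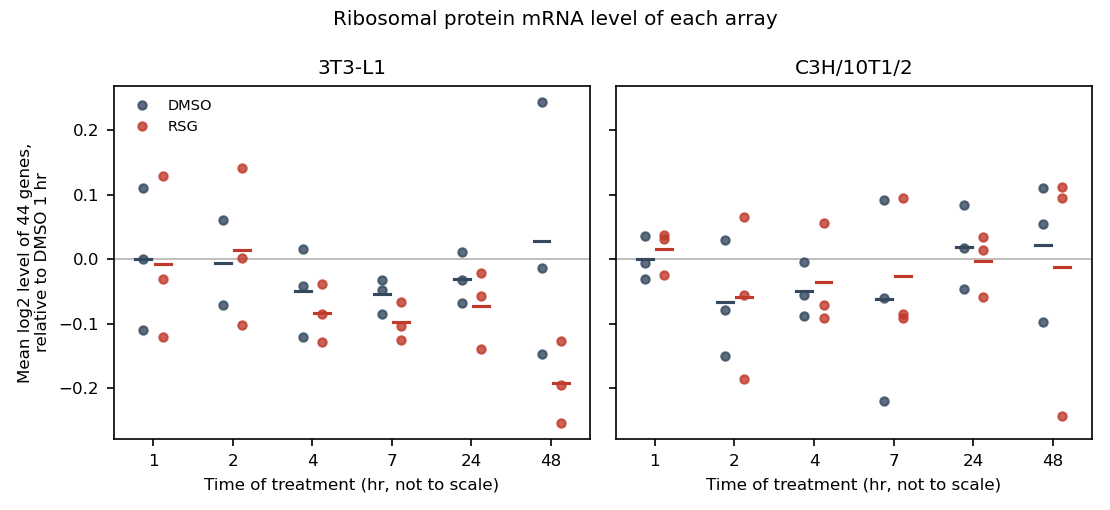
Mean log2 signal of the 44 tested ribosomal protein genes on each array (points), relative to the mean of the DMSO arrays at 1 hr of the same line, by time in hours (not to scale); bars are group means, DMSO in blue and RSG in red. The 3T3-L1 DMSO array at 0.24 at 48 hrs is the highest of the line, and the 3 RSG arrays there lie between -0.25 and -0.13.

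Probe sets that were not used for the member values were lower too on the same arrays. Of all 90 tested probe sets of the members 13 were lower and 0 higher at 48 hrs in 3T3-L1, where 8.09% of all probe sets were lower. They included other probe sets of Rps14 (log2 fold change -0.67), Rpl41 (-0.80), Rpl37a (-0.48), Rps20 (-0.48) and Rps24 (-0.53), genes whose brightest probe set did not pass. Those brightest probe sets had negative values. Rpl41, Rpl37a, Rps20 and Rps24 also had dim probe sets with positive values, from 0.11 to 0.70, that did not pass. Of the 21 members with several tested probe sets, 11 had all of them on 1 side. Of the 97 tested ribosomal protein probe sets annotated to several genes, 28 were lower and 0 higher, with a median of -0.29. Without the first DMSO array 3 of the 90 and 5 of the 97 were lower, with medians of -0.11 and -0.16. In C3H/10T1/2 at 48 hrs 0 of 86 and 0 of 94 such probe sets passed, with medians of -0.02 and -0.01.

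The RSG effect was also compared between the lines. At 24 and 48 hrs 0 of 44 members differed in their response (interaction in limma, adjusted p under 0.05), where 0.313% and 0.948% of 10547 genes did, and 0 and 3 members passed without adjustment (the methods' test called 1 and 3). The 3 at 48 hrs were Rps26, Rps24 and Rps3, and for Rps26 the response was lower in 3T3-L1 by 0.41 ± 0.17 (log2, SE; limma adjusted p = 0.399). The median difference over members at 48 hrs was -0.18. In C3H/10T1/2 at 48 hrs the median of the members was -0.01, and Rps26 read 4199, 4561 and 4048 with DMSO and 3836, 4526 and 4459 with RSG. The decrease in 3T3-L1 was therefore not shown to be particular to that line. At 1, 2, 4 and 7 hrs 0 members differed between the lines, and between 0 and 1 did without adjustment.

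The DMSO arrays were also compared with one another, from 1 hr of vehicle onwards. The removal of RSG itself, which came before the first of them, was not measured. In 3T3-L1 0 of 44 members differed from 1 hr at 7, 24 and 48 hrs, against 0.124%, 0.861% and 2.06% of all genes. The same comparisons in C3H/10T1/2 called 11.2%, 13.0% and 11.1% of all genes and again 0 members. Median log2 changes of the members lay between -0.06 and 0.05, and between 79.5% and 88.6% of members had an interval within 1.5-fold. For 3T3-L1 the unadjusted p was under 0.05 for 0, 2 and 0 members at 7, 24 and 48 hrs, and the methods' test called 1, 0 and 0. For C3H/10T1/2 the numbers were 2, 1 and 2, and 2, 1 and 1.

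A block for the replicate number, which was taken to pair the arrays of C3H/10T1/2, changed 2 calls in that line. Rps9 was then lower at 7 hrs (-0.35, limma adjusted p = 0.0438) and Rps27 lower at 48 hrs (-0.80, adjusted p = 0.0313). Without the block their adjusted p was 0.0685 and 0.162. Rps27 was read by a dim probe set, whose DMSO arrays spread from 87.5 to 287 at 1 hr and from 82.3 to 115 at 48 hrs. With quantile normalization Rpl7l1 was lower at 7 hrs and Rpl6, Rpl8 and Rpl37a were higher at 24 hrs in this line.

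Across all groups the members varied little. The median SD between replicates was 0.16 for 3T3-L1 and 0.17 for C3H/10T1/2 on the log2 scale, against 0.28 and 0.25 for all genes. Among genes with a signal of 1000 or more, where bright probe sets can saturate, that SD was 0.15 for members and 0.17 for all genes in 3T3-L1, and 0.16 for both in C3H/10T1/2. The highest and lowest of a gene's 12 group means were a median of 1.28-fold and 1.17-fold apart for members, and 1.62-fold and 1.57-fold for all genes. At that brightness the members' group means were 1.24-fold and 1.14-fold apart and those of all 527 genes 1.53-fold and 1.39-fold. The brightest member value was 10278 (Rpl41), below the highest signal of any probe set, 16545.

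Many members differed between the lines, at a share below that of all genes. In DMSO, averaged over the 6 times, 27 of 44 members were higher and 3 lower in 3T3-L1 than in C3H/10T1/2 (limma), where 57.8% of all genes were higher and 22.0% lower. In either direction 68.2% of members and 79.9% of all genes were called. The fit treated the arrays of a line as independent, although they came from a few differentiation batches. The SEs and intervals of this comparison may therefore be too small. The lines were also differentiated by unlike protocols, so line and protocol cannot be told apart. The median log2 difference was 0.22 for members and 0.36 for all genes, and quantile normalization, which moved the median of all genes to 0.13, left that of the members at 0.21 with 31 higher and 7 lower. The largest differences were those of Rpl27a (1.09 ± 0.15 SE), Rpl12 (0.97 ± 0.11), Rpl37 (0.83 ± 0.07), Rps27 (0.74 ± 0.14) and Rpl22l1 (0.56 ± 0.08). Of these Rpl27a, Rpl12 and Rps27 had low signals in both lines. The 3 lower members were Rps27l (-0.61 ± 0.09), Rpl22 (-0.46 ± 0.09) and Rps25 (-0.18). With the replicate number as a block Rps25 gave -0.03 and did not pass. That fit sets each line at the level of its replicate 1, so it does not adjust the difference for batch.

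**Figure D4:**
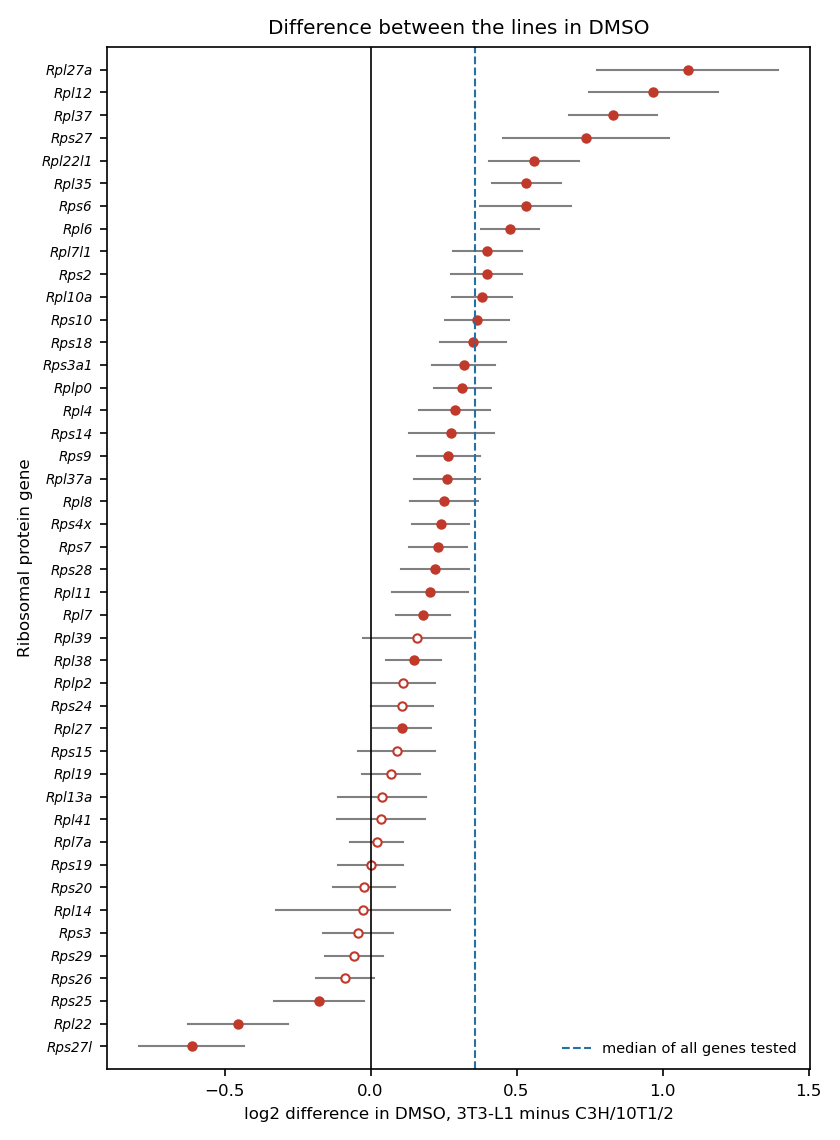
Log2 difference in DMSO between 3T3-L1 and C3H/10T1/2, averaged over 6 times, for each tested ribosomal protein gene with its 95% interval. Filled points passed the test, and the intervals treat the arrays of a line as independent. Most points lie to the right of 0 and 30 are filled, 3 of them to the left, and the dashed line marks the median of all genes at 0.36.

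In 2 paralogue pairs the partners differed in opposite directions between the lines. Rpl22 was lower and Rpl22l1 higher in 3T3-L1. Rpl22 gave a median of 585 over the arrays of 3T3-L1 and 849 over those of C3H/10T1/2, and Rpl22l1 gave 1052 and 770.2. The individual arrays overlapped, from 455 to 847.5 and 619 to 1358 for Rpl22 and from 794 to 1367 and 485 to 1049 for Rpl22l1. Rps27l, a paralogue of Rps27 that is known as a p53 target, had a median of 777 over the arrays of 3T3-L1 and 1156 over those of C3H/10T1/2, and Rps27 had 222 and 123. Rpl7l1, which takes part in ribosome biogenesis, was 0.40 ± 0.06 (log2, SE) higher in 3T3-L1, and its partner Rpl7 0.18 ± 0.05.

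With RSG the paralogues were not called. Rpl22l1 read 1367, 1066 and 1123 with DMSO and 794, 961 and 1023 with RSG at 48 hrs in 3T3-L1. The RSG arrays lay below the DMSO arrays, as for Rpl22, with a log2 fold change of -0.36 ± 0.15 (SE; limma adjusted p = 0.123). Rps27l gave -0.12 ± 0.20 (SE; limma adjusted p = 0.791) and Rps27 0.41 ± 0.30 (SE; adjusted p = 0.437) in the same comparison. Rpl7l1 gave its highest value at 7 hrs in 3T3-L1, 0.35 ± 0.16 (SE), with a limma adjusted p of 0.350.

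Some genes that make or serve the ribosome were called at earlier times. Of 58 tested genes for ribosome biogenesis, a list that also holds Rpl7l1, 6 were higher and 0 lower with RSG at 7 hrs in 3T3-L1, with a median log2 fold change of 0.21. That is 10.3% of the list, where 1.43% of all genes were higher. They were Rrs1 (1.02), Nolc1 (0.81), Bysl (0.76), Nop58 (0.71), Nhp2 (0.58) and Pno1 (0.49), factors of rRNA processing and subunit assembly named here after their values were seen. At 24 hrs 1 was higher and 2 lower, the lower ones being the nucleolar proteins nucleophosmin (Npm1, -0.52) and nucleolin (Ncl, -0.41), and at 48 hrs 2 were higher (Bysl, 0.60, and Nop2, 0.59) and 1 lower (Npm1, -0.45), or 0 without the DMSO array of replicate 1. Both shares, 5.17% of the list, were under the 12.6% and 14.8% of all genes called at those times. At 4 hrs 1 gene was higher in each line. In C3H/10T1/2 4 were lower at 24 hrs, Nmd3 (-0.66), Nop56 (-0.56), Nop58 (-0.51) and Gnl3 (-0.42), or 6.90% of the list where 4.58% of all genes were lower, and 0 passed at 7 and 48 hrs. In the DMSO arrays of C3H/10T1/2, where 0 ribosomal proteins passed, 11 of the 58 (19.0%) were higher at 24 hrs than at 1 hr, where 6.91% of all genes were.

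Of 35 tested translation factors 1 was higher and 6 lower (17.1%) at 48 hrs with RSG in 3T3-L1, where 8.63% of all genes were lower. At 24 hrs 1 was higher and 3 lower (8.57%), near the 7.43% of all genes. Of those lower at 48 hrs 5 were subunits of eIF3, the factor that binds the small subunit: Eif3k (-0.78), Eif3m (-0.51), Eif3i (-0.36), Eif3f (-0.34) and Eif3e (-0.31). At 24 hrs Eif3k (-0.60), Eif3m (-0.48) and Eif3d (-0.39) were lower, and all 11 tested eIF3 genes had a negative fold change, with a median of -0.27 (at 1 hr all 11 were negative too, with a median of -0.08 and 0 called). Without the DMSO array of replicate 1, Eif3k (-0.73) and Eif3m (-0.47) passed at 48 hrs and 2 of the 35 factors were called. The eIF3 genes were singled out after their values were seen. In C3H/10T1/2 1 eIF3 gene, Eif3d, was lower at 24 hrs (-0.37) and 0 at 48 hrs, where Eif4b was higher (0.45).

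Among 20 tested genes of mTOR and S6 kinase signaling, 3 were higher and 2 lower at 24 hrs in 3T3-L1 (5 of 20, where 12.6% of all genes were called), led by Ddit4 (1.21) and Pdcd4 (-1.30). The 4 called at 48 hrs in 3T3-L1 (4 of 20, against 14.8% of all genes) were Ddit4 (1.57), a stress-induced inhibitor of mTORC1, Mxi1 (1.14), a MYC antagonist, Mlst8 (0.83), a subunit of both mTOR complexes, and Pdcd4 (-1.07), an inhibitor of eIF4A that S6 kinase marks for degradation. Mlst8 (0.56) and Pdcd4 (-0.83) moved the same way in C3H/10T1/2 at 48 hrs. Without the DMSO array of replicate 1, 3 were higher and 2 lower in 3T3-L1, with Ddit4 at 1.37, Mlst8 at 0.74 and Pdcd4 at -0.73. Only 2 of the 6 ribosomal proteins with other symbols were measured, and 0 of them passed in any comparison.

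The mitochondrial ribosomal proteins are encoded by other genes and were added as a list later. Some of them were higher with RSG than with DMSO. Of 74 tested 9 (12.2%) were higher and 0 lower at both 24 and 48 hrs in C3H/10T1/2, with medians of 0.16, where 4.06% and 3.18% of all genes were higher. In 3T3-L1 6 (8.11%) were higher and 0 lower at 24 hrs and 5 (6.76%) higher and 3 lower at 48 hrs, where 5.16% and 6.16% of all genes were higher. The medians there were 0.17 and 0.05, and the latter was 0.16, with 6 higher and 2 lower, without the DMSO array of replicate 1. Mrpl12, which also binds the mitochondrial RNA polymerase, was higher by 1.03 and 1.02 at 24 and 48 hrs in 3T3-L1 and by 0.70 and 0.54 in C3H/10T1/2. The members' medians in these comparisons were -0.04 and -0.20 for 3T3-L1 (-0.07 at 48 hrs without that array), and -0.05 and -0.01 for C3H/10T1/2. No test of the difference between these lists was made. In the DMSO arrays of C3H/10T1/2, 7 (9.46%) and 6 (8.11%) of the 74 were lower at 24 and 48 hrs than at 1 hr. Of all genes 6.05% and 5.33% were lower, and 1 and 0 of the 74 were higher. Mrpl45 was among the lower ones at 24 hrs (-0.55) and Mrpl34 at 48 hrs (-0.68). Against DMSO at those times they were higher with RSG (0.63 and 0.71). A higher value with RSG is therefore not by itself a rise over time.

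**Figure D5:**
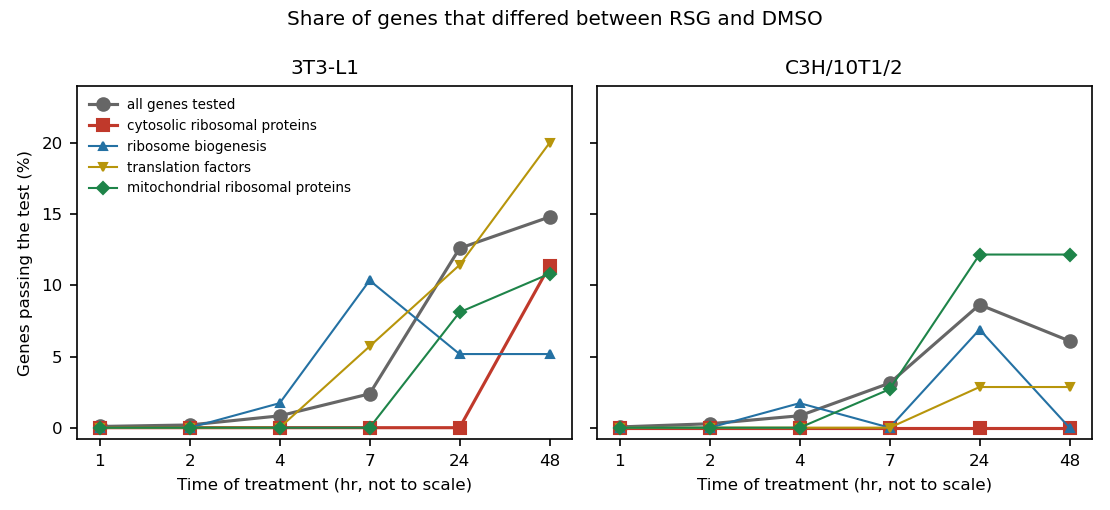
Share of genes that passed the test for RSG against DMSO (percent, adjusted p under 0.05, either direction) by time in hours (not to scale) for all tested genes, the 44 cytosolic ribosomal proteins, 58 ribosome biogenesis genes, 35 translation factors and 74 mitochondrial ribosomal proteins, in each line. The cytosolic ribosomal proteins stay at 0 in every panel and time except 3T3-L1 at 48 hrs, where they reach 11.4% against 14.8% of all genes.

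Markers of undifferentiated cells moved with treatment in both lines. Of 13 fibroblast markers 8 (61.5%) were lower at 48 hrs in 3T3-L1, among them Pdgfra, Thy1 and Dlk1, where 8.63% of all genes were lower. In C3H/10T1/2 5 (38.5%) were lower, where 2.91% of all genes were. Called in both lines were Col1a1 (-0.83 in 3T3-L1 and -1.19 in C3H/10T1/2), Pdgfrb (-0.80 and -1.07) and Pdgfra (-0.91 and -0.97). Thy1 and Dlk1 were not called in C3H/10T1/2, where Dlk1 was dim (median signal 31.4). In both lines 0 were higher. The summed signal of the 13 markers lay between 33625 and 33939 with DMSO and between 22778 and 24559 with RSG in 3T3-L1. In C3H/10T1/2 it lay between 22709.8 and 23348 with DMSO and between 17078 and 19355 with RSG. The summed signal of 8 adipocyte markers overlapped between treatments in both lines, from 27828 to 37159 with DMSO and from 29158.5 to 39325 with RSG in 3T3-L1. Adipoq, Lpl, Fabp4 and Retn made up most of that sum. Of the 7 tested, which leave out Lep, Pparg was lower at 48 hrs in 3T3-L1 (log2 fold change -0.83) and also C3H/10T1/2 (-0.61), and the lipid droplet protein Cidec was higher in 3T3-L1 (0.84). None of the 13 fibroblast markers was at 0, and fewer such cells and less of these mRNAs per cell cannot be told apart in whole cultures. The part of cell makeup in the ribosomal protein result was not tested.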

How the data were processed

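The authors extracted intensity values from Affymetrix mouse arrays with MAS 5.0 and deposited them as linear signals in a table of 22690 probe sets. Every array has a mean near 150.1 after trimming 2% at each end. Their number limits the precision. The 64 control probe sets were left out, 132 zeros were set to 0.1, and values were taken to log2. Probe sets with a group mean at the presence level were tested in R 4.3.3 with limma 3.58.1 (lmFit, eBayes with a trend), per line over its 12 groups, and jointly for comparisons between lines. P-values were adjusted by Benjamini-Hochberg over all tested probe sets. A gene is given by its probe set of highest mean log2 signal, and background shares are by gene. GEO's platform annotation named 20380 probe sets by 1 gene, 691 by several and 1555 by none. Called members were named up to 5 each way per comparison, with Rplp0, Rps6 and paralogue pairs always, and up to 3 genes each way of other lists. The members and lists were chosen with earlier results of these data known. Same-numbered C3H/10T1/2 arrays deviated together in 18 of 18 pairs of treatments (r from 0.132 to 0.307) and were taken as paired by differentiation batch. The methods' test was an analysis of variance on log10 signals without moderation, at an unadjusted p under 0.05 with a 1.2-fold change. Scripts were tested on simulated data.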

Additional observations from a re-analysis of the deposited data

How the results depend on the processing

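No called member changed direction under the alternatives run for it. The other gene lists were recomputed under alternatives for 48 hrs in 3T3-L1 alone. The methods' test without adjustment called 1, 5, 1, 1 and 13 members for RSG at 2, 4, 7, 24 and 48 hrs in 3T3-L1 and 1 member each at 1, 4 and 48 hrs in C3H/10T1/2. It called 1 member for DMSO at 7 hrs against 1 hr in 3T3-L1, 2, 1 and 1 at 7, 24 and 48 hrs in C3H/10T1/2, and 1 and 3 for the difference between lines at 24 and 48 hrs. Quantile normalization called 4 and 15 members for RSG at 24 and 48 hrs in 3T3-L1, 2 and 1 in C3H/10T1/2, and 1 and 3 for DMSO at 7 and 24 hrs in C3H/10T1/2. With the replicate number as a block, 1 member was called for RSG at 24 hrs and 1 (Rpl27a, log2 change -0.60) for DMSO at 48 hrs in 3T3-L1, and 1 each for DMSO at 7 and 48 hrs in C3H/10T1/2. The block called 6 for RSG at 48 hrs in 3T3-L1. In 3T3-L1 the numbers were not taken to pair the arrays, since only 14 of 17 pairs correlated above 0.1, although all 17 were positive and 33 of 34 arrays correlated best with their own number, a hint from the data that they may mark batches there too. A fit of only the groups compared called 0 for RSG at 48 hrs in 3T3-L1. Probe sets with no letter suffix called 2 there and 11 between the lines. Leaving out each array in turn gave from 1 to 13 called members for RSG at 48 hrs in 3T3-L1, from 0 to 1, 0 to 1 and 0 to 2 for DMSO at 7, 24 and 48 hrs in C3H/10T1/2, and from 28 to 32 between the lines. For single genes 36 values lost their call, all in RSG at 48 hrs in 3T3-L1 or, for Rps25, between the lines. The fit without the first DMSO array at 48 hrs, for other probe sets and lists, was chosen after seeing the data. Intervals of Rpl12, Rpl14, Rpl27a and Rps27 were wide and lay within 1.5-fold in at most 1 of 12 comparisons, so small changes of these members could go unseen. Probe sets of ribosomal proteins can also hybridize to mRNA of pseudogenes or close copies, and all values are relative to the scaling of each array, so a change shared by most mRNAs would not be seen.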
